A study of Mus musculus with 7 samples.

Results

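Glycolysis and the response to low oxygen were followed through 34 genes in papillomas, benign epidermal tumors, of mice. The genes were taken by name from the table of p16 and control papillomas: 20 encode enzymes and transporters that carry glucose to pyruvate and lactate, and 14 encode oxygen sensors or targets of the hypoxia-inducible factors (HIF). The table held 14820 genes, and it listed all 34. There were 3 p16 papillomas (numbered 1, 2 and 3), from K5-rtTA/tet-p16 mice, and 4 control papillomas (1, 2, 3 and 5), from mice with tet-p16 alone. The rtTA activator is made from the keratin 5 promoter, used by basal keratinocytes, and turns on human p16 in those cells when doxycycline is given, whereas tet-p16 without rtTA stays silent. Mice of both groups received the mutagen DMBA on the skin once (50 nmol, at an age of 3 weeks), then doxycycline in the water and repeated TPA, a tumor promoter, and were followed for 23 further weeks, to an age of 27 weeks and 10 days after the last TPA. Whether each lesion came from its own mouse is not stated in the labels, and the p-values cover the variation from lesion to lesion, which may be technical in part. The transgene itself was not analysed here.

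Glycolysis splits glucose into pyruvate, which lactate dehydrogenase can turn into lactate. When oxygen is short, the HIF alpha subunits escape hydroxylation by the prolyl hydroxylases (the Egln genes) and switch on glucose transporters, most glycolytic enzymes, vascular growth factors and, as feedback, some of the hydroxylases. Proliferating epidermis and skin tumors draw on glycolysis even where oxygen is present, and the epidermis, which has no vessels of its own, is normally mildly low in oxygen.

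Of the 34 genes, 33 reached a mean of 10 normalized read counts in either group and were tested with limma on log2(value + 1). After adjustment over all 10466 genes tested, 4 of the 33 (12.1%) passed an adjusted p of 0.05, against 5.62% of all genes tested. The prolyl hydroxylases Egln3 and Egln1 and the platelet-type phosphofructokinase Pfkp were higher in p16 papillomas (3 genes, where 2.66% of all genes were called higher), and the glucose-6-phosphate isomerase Gpi1 was lower (1 gene, where 2.96% of all genes were called lower). The 2 groups of papillomas did not overlap for 8 of the 33, against 19.6% of all genes tested. In 5 of these, p16 papillomas were the higher (9.25% of all genes), and in 3 the lower (10.4% of all genes). At an unadjusted p of 0.05 (limma), 6 of the 33 were higher and 5 lower, against 9.66% of all genes tested higher and 11.6% lower at that threshold. The median log2 change was 0.0053 over the 33 genes and -0.02 over all genes tested. The shares were not tested against each other.

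The libraries held 1158035 to 4365391 reads, and 1 read was worth between 0.735 and 2.89 normalized units, the most in p16 papilloma 2. Keratinocyte markers were abundant in every papilloma, and basal markers summed to 33911 to 46956 in p16 and 44482 to 68923 in control papillomas. Of 10 basal markers tested, limma called Itga6 lower (log2 change -0.73) and none higher, where 2.96% of all genes were called lower. At an unadjusted p of 0.05 (limma), 5 of the 10 were lower and 1 higher, against 11.6% and 9.66% of all genes. Markers of other cells differed between the lesions. Summed skeletal muscle markers (20 genes) were 342, 14019 and 3232 in p16 papillomas 1, 2 and 3, against 248 to 792 in control papillomas. Summed erythroid markers (7 genes) were 214 to 866 in p16 papillomas and 1948 to 13917 in control papillomas, with no overlap. All 5 erythroid markers tested were called lower by limma, where 2.96% of all genes were called lower. Markers of suprabasal keratinocytes summed to 101840 to 147722 in p16 papillomas against 60501 to 73345 in control papillomas. Of 10 tested, limma called 5 higher and none lower, where 2.66% of all genes were called higher. The sums of adipocyte, fibroblast, endothelium and leukocyte markers overlapped, but single markers did not all do so. Of 7 adipocyte markers tested, Adipoq, Cfd and Car3 were called higher in p16 papillomas (log2 change 2.78, 3.61 and 3.45, limma). Of all genes, 2.66% were called higher. Fabp4, which makes up most of the adipocyte sum, had a log2 change of -1.54 and did not pass. Of 12 fibroblast markers tested, Dcn (2.14) and Thy1 (1.09) were called higher and none lower, against 2.66% and 2.96% of all genes. The log2 change was positive for 9 of the 12 and negative for 3. The part of these cells in the results below was not tested beyond the covariate fits that are given, and in whole lesions fewer cells of a type and less RNA per cell cannot be told apart.

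**Figure D1:**
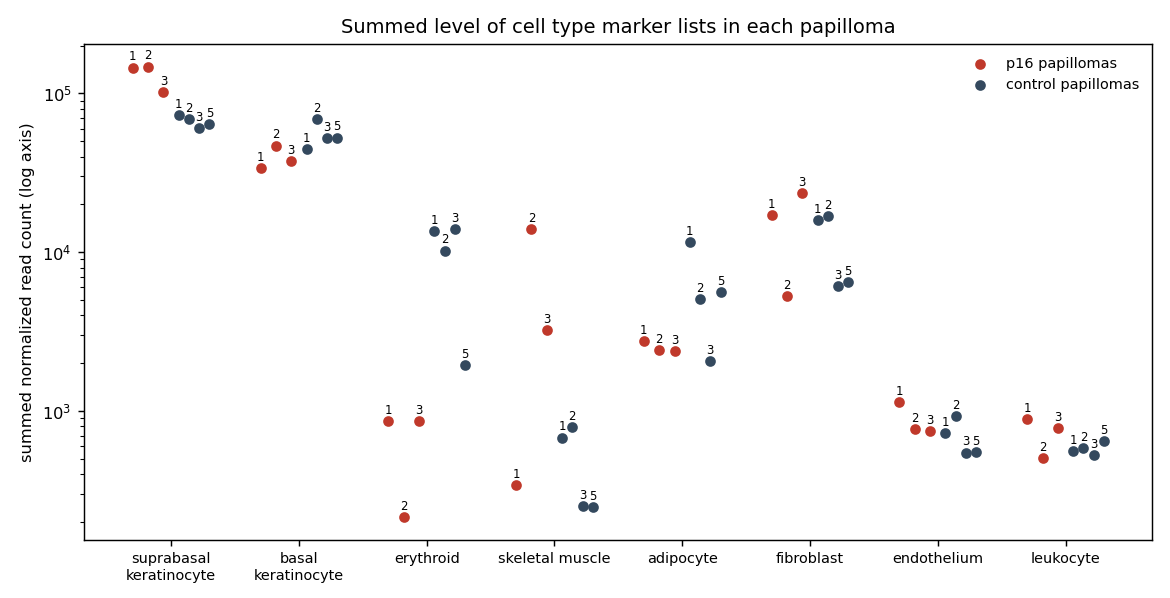
Summed normalized read counts (log axis) of marker lists for cell types a papilloma can hold, 1 point per papilloma with its number, p16 in red and control in blue. Suprabasal keratinocyte sums were higher and erythroid sums lower in every p16 papilloma than in any control papilloma, and p16 papillomas 2 and 3 held the most skeletal muscle signal.

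Sequences just before the starts of the 4 called genes are shown because HIF binds the letters ACGTG or GCGTG, and the genes that passed the test can be compared by whether they carry them. The windows are RefSeq promoters (GRCm38.p6), all on the minus strand and written 5′ to 3′, and the capitals mark ACGTG or GCGTG on either strand. The Egln3 window is chr12:54203875-54204124, the Egln1 window chr8:124949325-124949504, the Pfkp window chr13:6648778-6649021 and the Gpi1 window chr7:34230337-34230586.
Egln3: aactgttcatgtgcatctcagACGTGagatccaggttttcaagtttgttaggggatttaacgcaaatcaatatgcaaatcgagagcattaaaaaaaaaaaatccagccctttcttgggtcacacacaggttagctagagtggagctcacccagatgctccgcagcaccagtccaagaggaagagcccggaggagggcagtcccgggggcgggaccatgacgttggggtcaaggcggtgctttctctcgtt
Egln1: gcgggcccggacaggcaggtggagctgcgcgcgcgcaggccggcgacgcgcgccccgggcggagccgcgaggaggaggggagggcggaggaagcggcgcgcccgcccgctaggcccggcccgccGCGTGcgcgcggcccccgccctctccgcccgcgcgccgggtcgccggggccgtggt
Pfkp: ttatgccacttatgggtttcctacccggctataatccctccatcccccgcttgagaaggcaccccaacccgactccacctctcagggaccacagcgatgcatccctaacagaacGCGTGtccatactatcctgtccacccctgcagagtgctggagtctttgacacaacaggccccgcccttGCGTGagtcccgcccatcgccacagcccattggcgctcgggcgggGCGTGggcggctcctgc
Gpi1: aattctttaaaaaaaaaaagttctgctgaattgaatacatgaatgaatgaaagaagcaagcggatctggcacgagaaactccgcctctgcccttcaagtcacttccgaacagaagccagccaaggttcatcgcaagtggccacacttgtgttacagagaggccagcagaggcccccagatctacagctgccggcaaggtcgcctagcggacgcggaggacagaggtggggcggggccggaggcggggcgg

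In the 250 bases before the RefSeq start, the letters occurred 1 time for Egln3 (229 bases before the start), 2 times for Egln1 (126 and 68 bases before it), 3 times for Pfkp (136, 68 and 23 bases before it) and not for Gpi1. The Egln1 match nearest the start lies within the GENCODE M21 gene, whose start is placed further upstream, and those 70 bases are not printed, nor are 6 bases of Pfkp for the same reason. Over both strands, 30 of the 32 genes with a RefSeq window (93.8%) held a match in at least 1 of their windows, among them 12 of 12 oxygen sensing and HIF target genes and 18 of 20 glycolysis genes. The share was 62.4% among the 8099 genes tested that had a window and 41.5% among all 27025 mouse genes with a window. Counted by window, 82.6% of the 46 windows of these genes held a match, against 56.2% of the windows of genes tested and 38.6% of all windows. Nearly all of these genes thus carry the letters, whether their level differed between the groups or not. A match is a description of the letters, not of binding.

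Among the oxygen sensors, Egln3 had the largest change of the 33 genes. It encodes the prolyl hydroxylase PHD3, which marks HIF alpha for destruction and is itself a HIF target. Egln3 (ENSMUSG00000035105, chromosome 12, 54178981 to 54203860, GRCm38) was measured at 3149, 2038 and 1458 normalized read counts in p16 papillomas 1, 2 and 3, against 651, 902, 691 and 699 in control papillomas 1, 2, 3 and 5. Every p16 papilloma lay above every control, with p16 papilloma 1 the highest. The skeletal muscle sum of p16 papilloma 1 lay in the control range, and those of p16 papillomas 2 and 3 lay above it. The part of muscle was not tested beyond the covariate fit given below. The means were 2215 ± 860 (SD, n = 3) in p16 and 736 ± 113 (SD, n = 4) in control papillomas, a log2 change of 1.53 (SE 0.23, limma, adjusted p = 0.00311). It was called in 18 of 19 alternative analyses, among them each omission of 1 papilloma, with log2 changes of 1.24 to 1.89. With the muscle and adipocyte markers as a covariate the change was 1.89 (limma, adjusted p = 0.0240). With the erythroid markers as a covariate it was 1.73, but no longer passed (limma, adjusted p = 0.348). Those markers separate the groups without overlap, so this covariate and the genotype cannot be told apart.

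Egln1 encodes PHD2, the main HIF prolyl hydroxylase at normal oxygen and also a HIF target. Its levels (ENSMUSG00000031987, chromosome 8, 124908587 to 124949324) were 507, 550 and 331 in p16 papillomas 1, 2 and 3, against 215, 214, 211 and 249.7 in control papillomas 1, 2, 3 and 5. The control papillomas were close together and all lay below the p16 papillomas, of which number 3 was the lowest. The log2 change was 1.02 (SE 0.19, limma, adjusted p = 0.00846), about 2.03-fold. The call was lost without p16 papilloma 2 (log2 change 0.88, limma, adjusted p = 0.0501), with the muscle and adipocyte covariate (1.05, adjusted p = 0.134) and with the erythroid covariate (0.57, adjusted p = 0.776). For both hydroxylases p16 papilloma 3 was the lowest of its group, as it was for the suprabasal keratinocyte sum. The part of that sum was not tested.

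The other oxygen sensing genes did not pass the test. Egln2, encoding PHD1, had 39.0, 34.7 and 51.5 in p16 papillomas and 41.8, 64.0, 51.1 and 46.4 in control papillomas, a log2 change of -0.28 (SE 0.24). Hif1a, which encodes the regulated alpha subunit of HIF-1, had 381, 382 and 382 in p16 papillomas and 458, 345, 307 and 320.3 in control papillomas. The p16 values of Hif1a fell inside the control range, and its log2 change was 0.11 (SE 0.16, limma, adjusted p = 0.744). HIF is controlled mostly at the protein level, which RNA does not show. Summed over the 4 genes, oxygen sensing reached 4076, 3005 and 2223 in p16 papillomas, against 1260.0 to 1526 in control papillomas. Most of each sum was Egln3 (means 2215 in p16 and 736 in control papillomas) and Egln1 (463 and 222). The sum thus largely repeats these 2 genes and does not show a rise of all 4.

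**Figure D2:**
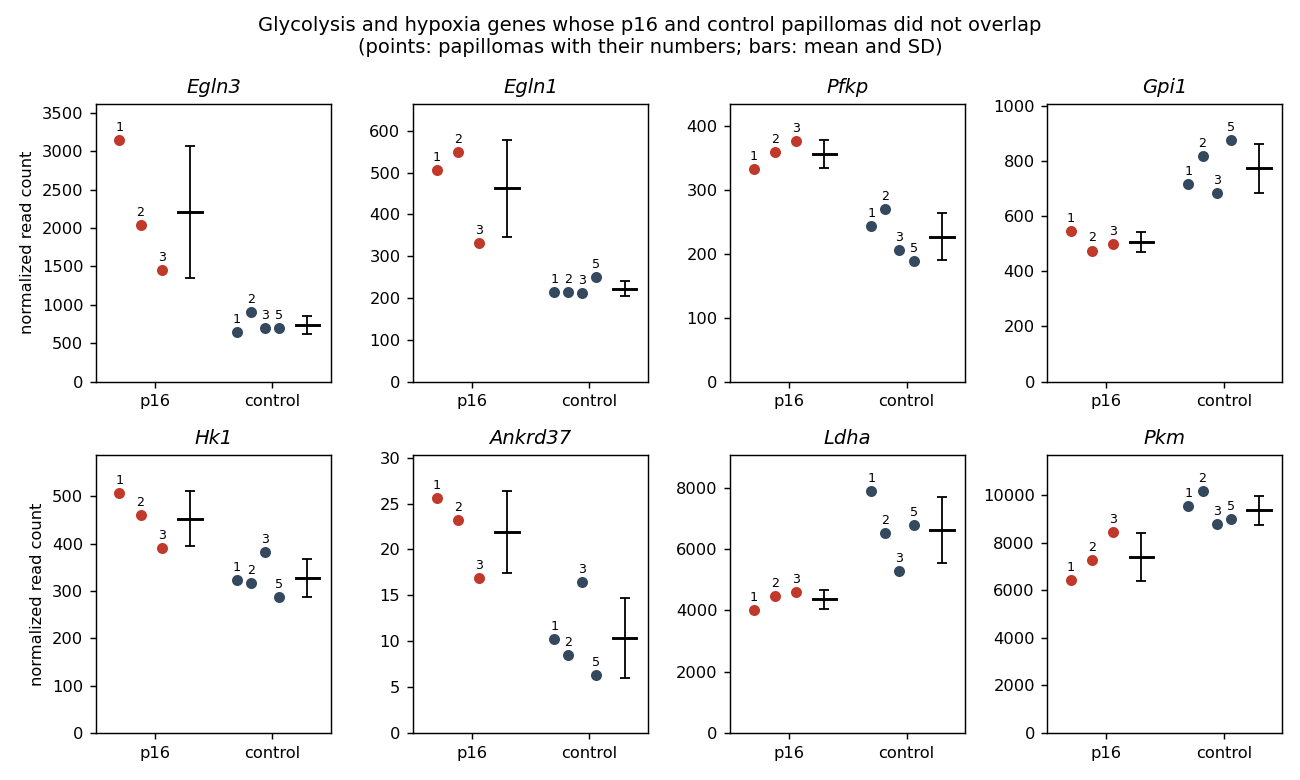
Normalized read counts in each papilloma (points, with the papilloma's number) for the 8 genes whose groups did not overlap, p16 in red and control in blue, with the mean and SD beside them; each axis starts at 0. The groups are clearly apart for Egln3 and Egln1, and only a narrow gap parts the nearest papillomas for Hk1, Ankrd37 and Pkm.

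None of the 9 HIF targets tested passed with limma, and 2 were higher and 2 lower at an unadjusted p of 0.05 (9.66% and 11.6% of all genes). Neither edgeR nor DESeq2 on the recovered reads called any of the 9. Ankrd37, an ankyrin repeat gene that responds strongly to hypoxia, had 25.6, 23.2 and 16.9 in p16 papillomas 1, 2 and 3, against 10.2, 8.46, 16.4 and 6.32 in control papillomas 1, 2, 3 and 5. The groups were separated only by the narrow gap between p16 papilloma 3 and control papilloma 3, and the values rest on 6 to 23 reads. Its log2 change was 1.06 (SE 0.41, limma, adjusted p = 0.158). Adm, encoding the vasodilator adrenomedullin, had 47.1, 28.9 and 25.0 in p16 papillomas against 70.0, 58.0, 42.0 and 51.6 in control papillomas, where control papilloma 3 lay below p16 papilloma 1. Its log2 change was -0.73 (SE 0.28, limma, adjusted p = 0.154). Ankrd37 and Adm, both induced by HIF, therefore had estimates of opposite sign, and neither passed.

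Bnip3 and Bnip3l encode mitophagy receptors of the outer mitochondrial membrane. Bnip3 had 1016, 721 and 561 in p16 papillomas against 488, 620, 573 and 389.9 in control papillomas, overlapping through p16 papilloma 3 (log2 change 0.54, SE 0.22, limma, adjusted p = 0.175). Bnip3l ranged from 1191 to 1395 in p16 and from 1248 to 1425 in control papillomas (log2 change -0.06). Ddit4, an inhibitor of mTORC1, had 25.6, 34.7 and 72.8 in p16 papillomas against 82.0, 54.4, 75.8 and 71.7 in control papillomas. Only p16 papilloma 3 reached the control range of Ddit4, whose log2 change of -0.79 (SE 0.32) did not pass (limma, adjusted p = 0.181). Without p16 papilloma 3 it was -1.21 and passed (limma, adjusted p = 0.0289).

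The vascular growth factor gene Vegfa had 245, 229 and 245 in p16 papillomas, inside the range of 207 to 298 in control papillomas (log2 change -0.08, SE 0.16, limma, adjusted p = 0.833). The stress-response gene Ndrg1 varied more in control papillomas (424 to 1058) than in p16 papillomas (558 to 896), with a log2 change of 0.05. P4ha1 and P4ha2, alpha subunits of the collagen prolyl 4-hydroxylase, had log2 changes of 0.20 (SE 0.30) and 0.37 (SE 0.28), with levels of at most 32.3 in any papilloma. Car9, the carbonic anhydrase often used as a hypoxia marker, was below the limit for testing, with 7, 1 and 6 reads in p16 papillomas 1, 2 and 3 and 4, 6, 4 and 2 in control papillomas 1, 2, 3 and 5. At this depth a difference in Car9 was not detectable. Thus 2 hydroxylases were called higher and these HIF targets were not, although a p that misses the threshold does not show that their levels were equal.

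**Figure D3:**
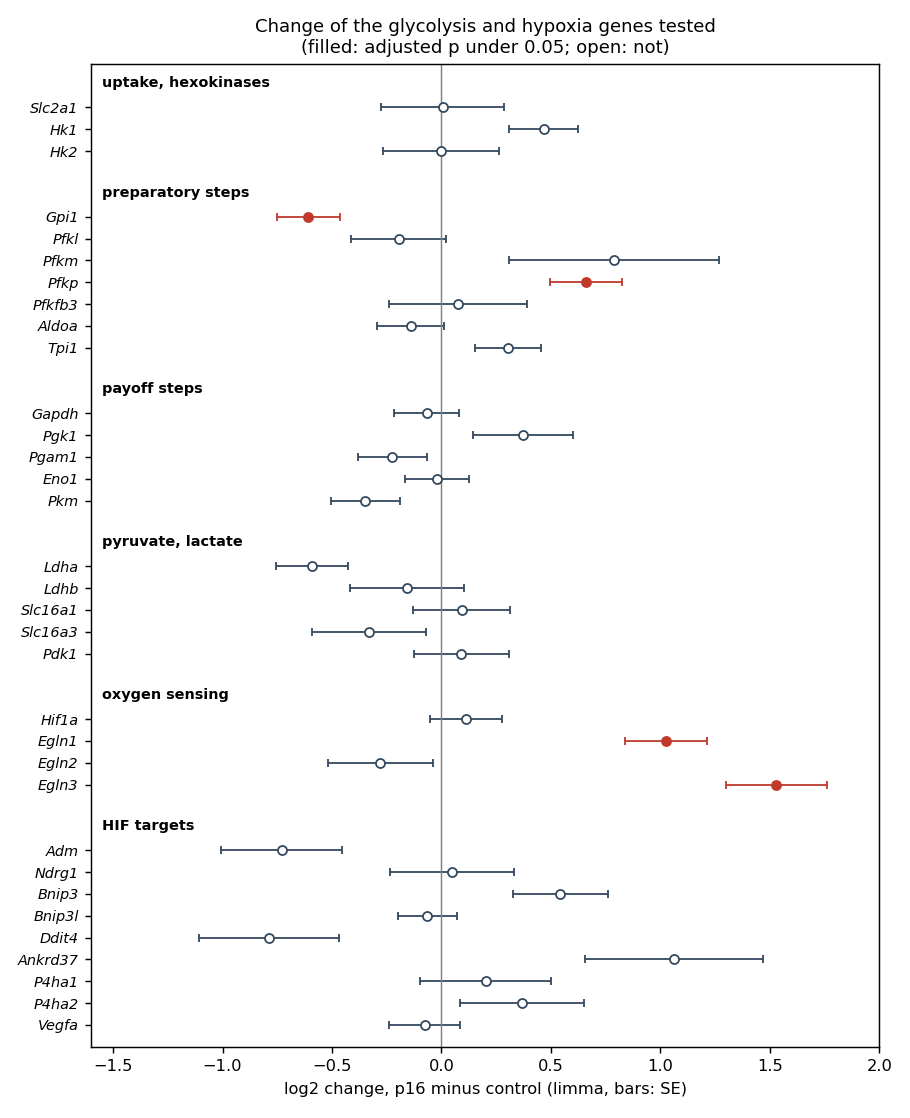
The log2 change (p16 minus control, limma) of the 33 genes tested, with bars of 1 SE, in the order of their roles; filled red points passed an adjusted p of 0.05 and open points did not. Egln3 (1.53), Egln1 (1.02) and Pfkp (0.66) lie to the right and Gpi1 (-0.61) to the left, and most other estimates lie closer to 0.

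Of the 20 glycolysis genes, limma called 1 higher and 1 lower (10.0% together), against 5.62% of all genes tested. The groups did not overlap for 5 of the 20, against 19.6% of all genes tested. The median log2 change of the 20 was -0.01. Slc2a1, encoding the glucose transporter GLUT1, had 117, 206 and 171 in p16 papillomas against 267, 158, 119.6 and 129 in control papillomas, with overlapping groups. Its log2 change was 0.0053 (SE 0.28, limma, adjusted p = 0.996). Hk1, a hexokinase that traps glucose in the cell, had 506, 460 and 390.3 in p16 papillomas against 323, 316, 382 and 287 in control papillomas. The groups did not overlap, but the log2 change of 0.47 (SE 0.16) did not pass (limma, adjusted p = 0.113). The inducible hexokinase Hk2 had a log2 change of -0.0020 (SE 0.27), with 157 to 295 in p16 and 152 to 285 in control papillomas.

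Both called glycolysis genes act in the preparatory steps, which use ATP to split glucose. Gpi1 converts glucose-6-phosphate to fructose-6-phosphate. Gpi1 (ENSMUSG00000036427, chromosome 7, 34201330 to 34230336) had 545, 475 and 497 in p16 papillomas 1, 2 and 3, against 717, 817, 684 and 876 in control papillomas 1, 2, 3 and 5. All p16 papillomas lay below all controls, and the log2 change was -0.61 (SE 0.14, limma, adjusted p = 0.0318). The next enzyme, phosphofructokinase, commits the sugar to glycolysis and has liver (Pfkl), muscle (Pfkm) and platelet (Pfkp) forms. Pfkp (ENSMUSG00000021196, chromosome 13, 6579768 to 6648777) had 332, 359 and 376 in p16 papillomas against 243, 269, 205 and 189 in control papillomas, with no overlap. Its log2 change was 0.66 (SE 0.16, limma, adjusted p = 0.0397). Both calls lie near the threshold, and each was made in 10 of 19 alternative analyses and in 2 of the 7 omissions of 1 papilloma. Gpi1 was lost without p16 papilloma 1 (limma, adjusted p = 0.0594), p16 2 (0.124), p16 3 (0.0721), control 2 (0.0944) or control 5 (0.0958), and Pfkp without p16 1 (0.0760), p16 2 (0.118), p16 3 (0.0969), control 3 (0.0796) or control 5 (0.108). The direction of both was kept in all 19, including the fits with muscle and adipocyte markers (log2 change -0.52 for Gpi1 and 0.48 for Pfkp) and with erythroid markers (-0.73 and 0.99). Neither call was kept in these fits, where the limma adjusted p was 0.339 and 0.602 for Gpi1 and 0.424 and 0.462 for Pfkp.

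The other preparatory genes were not called. Pfkl had 106 to 133 in p16 and 99.1 to 184 in control papillomas, a log2 change of -0.20 (SE 0.22). Pfkm had 9.42, 37.6 and 39.0 in p16 papillomas 1, 2 and 3 against 10.5 to 18.8 in control papillomas, and its high values were in the 2 papillomas with the most skeletal muscle signal. Its log2 change of 0.79 (SE 0.48) became -0.44 with the muscle and adipocyte covariate. Pfkfb3, which makes the activator of phosphofructokinase, had a log2 change of 0.08 (SE 0.31), the aldolase gene Aldoa -0.14 (SE 0.15) and the triosephosphate isomerase gene Tpi1 0.30 (SE 0.15, limma, adjusted p = 0.278). Tpi1 ran from 1248 to 1440 in p16 and from 918 to 1280 in control papillomas.

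The payoff steps, which yield ATP, held no gene called by limma, edgeR or DESeq2, and 1 of the 5 was lower at an unadjusted p of 0.05, as were 11.6% of all genes. Pkm, the pyruvate kinase gene that makes pyruvate, had 6427, 7280 and 8451 in p16 papillomas against 9526, 10157, 8773 and 8993 in control papillomas. The groups did not overlap, though p16 papilloma 3 came close to control papilloma 3, and the log2 change of -0.35 (SE 0.16) did not pass (limma, adjusted p = 0.230). Pgk1, the phosphoglycerate kinase gene, had 61.9, 55.0 and 61.0 in p16 papillomas against 57.2, 33.8, 43.8 and 50.6 in control papillomas (log2 change 0.37, SE 0.23, limma, adjusted p = 0.385). Gapdh (-0.07), the phosphoglycerate mutase gene Pgam1 (-0.23) and the enolase gene Eno1 (-0.02) had log2 changes with SE of 0.15 to 0.16. How reads that match several copies were counted was not given in the sources used here, and Gapdh, Pgk1, Pgam1, Eno1, Aldoa and Ldha have related copies or pseudogenes in the mouse annotation, so their levels are uncertain.

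Ldha, the lactate dehydrogenase subunit that favors lactate, was the closest to the threshold of the uncalled genes. It had 4021, 4463 and 4591 in p16 papillomas 1, 2 and 3, against 7885, 6525, 5287 and 6794 in control papillomas 1, 2, 3 and 5. All p16 papillomas lay below all controls, the nearest being control papilloma 3. The log2 change was -0.59 (SE 0.17, limma, adjusted p = 0.0610). It passed when scaled to library totals (adjusted p = 0.0389), with DESeq2 on the recovered reads (adjusted p = 0.00625) and without control papilloma 3 (-0.69, limma, adjusted p = 0.0272). Slc16a3, encoding the lactate exporter MCT4, had 117, 162 and 137 in p16 papillomas against 257, 207, 150 and 113 in control papillomas (log2 change -0.33, SE 0.26, limma, adjusted p = 0.507). Ldhb, the subunit that favors pyruvate, had a log2 change of -0.16 (SE 0.26). The transporter gene Slc16a1 (MCT1) had 0.09 (SE 0.22), and the pyruvate dehydrogenase kinase gene Pdk1 had 0.09 (SE 0.22).

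Summed over the 20 glycolysis genes, p16 papillomas held 25075, 28020 and 28949 normalized read counts against 35823, 34630, 29391 and 31654 in control papillomas. All p16 sums were below all control sums, with p16 papilloma 3 and control papilloma 3 the nearest. The sum is dominated by the most abundant genes, Pkm, Ldha, Pgam1 and Aldoa, and was given no test. The 5 pyruvate and lactate genes summed to 4306, 4869 and 4943 in p16 papillomas against 8358, 6926, 5643 and 7098 in control papillomas. Most of each of these sums was Ldha, with a mean of 4358 in p16 and 6623 in control papillomas, so they largely repeat Ldha. Control papilloma 1 was the highest control for 15 of the 33 genes (45.5%), against 28.6% of all genes tested, among them Ldha, Slc2a1, Slc16a3, Adm, Ddit4, Vegfa and Hif1a.

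Ratios of (value + 1) between paralogs within a papilloma depend little on the scaling of the library, except at low levels such as those of Pfkm. In all, 6 were compared. The log2 ratio of Pfkp to Pfkl was 1.64, 1.42 and 1.68 in p16 papillomas against 1.29, 1.09, 0.48 and 0.03 in control papillomas, a difference of 0.86 with no overlap. The log2 ratio of Bnip3 to Bnip3l was -0.46, -0.88 and -1.08 in p16 papillomas against -1.51, -1.16, -1.12 and -1.87 in control papillomas, a difference of 0.61, also with no overlap. Each had an exact two-sided permutation p of 0.0571, and 0.171 after adjustment over the 6 ratios. The two-sided p was the one-sided p doubled, and 0.0571 is the smallest it can take with 35 splits of 7 papillomas. The test as run could therefore not reach a p of 0.05. The ratios Hk2 to Hk1 (-0.47), Pfkm to Pfkl (0.98), Ldhb to Ldha (0.43) and Slc16a3 to Slc16a1 (-0.42) overlapped between the groups (exact permutation p of 0.171 to 0.286).

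**Figure D4:**
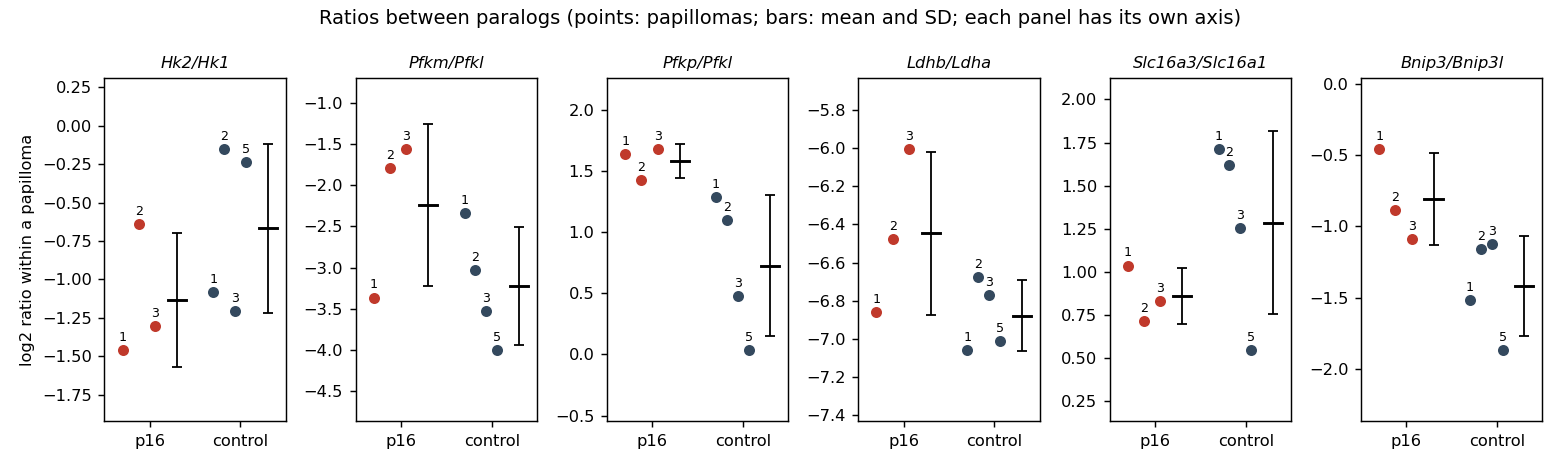
The log2 ratio of 2 paralogs within each papilloma (points, with the papilloma's number), p16 in red and control in blue, with the mean and SD beside them; each panel has its own axis. The groups do not overlap for Pfkp to Pfkl and, by a narrow gap between p16 papilloma 3 and control papilloma 3, for Bnip3 to Bnip3l.

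Other genes of these pathways were counted in the same way. Of 25 further glycolysis genes tested, limma and edgeR each called 1 higher and 1 lower, and DESeq2 called 4 higher and 1 lower. Ldhd, which encodes the mitochondrial D-lactate dehydrogenase, had 30.9, 40.5 and 36.8 in p16 papillomas against 5.98, 10.9, 11.9 and 9.48 in control papillomas, a log2 change of 1.84 (SE 0.35, limma, adjusted p = 0.00991). The groups lay far apart for Ldhd, which uses another substrate than Ldha, and the call was lost without p16 papilloma 2 (limma, adjusted p = 0.0501). Gpd2, the mitochondrial glycerol-3-phosphate dehydrogenase that takes up electrons from cytosolic NADH, had 161, 156 and 136 in p16 papillomas against 188, 294, 253 and 259 in control papillomas (log2 change -0.70, SE 0.18, limma, adjusted p = 0.0454). This call was kept only without control papilloma 1 among the 7 omissions (adjusted p up to 0.131, reached without control papilloma 2).

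Of 18 genes of glycogen metabolism and the pentose phosphate pathway, limma and edgeR each called 1 lower and none higher. With limma this was 5.56% of the 18, against 5.62% of all genes tested. DESeq2 called 2 higher (Pygm and Ppp1r3c) and 2 lower (Tkt and Taldo1). Pygm had 5.38, 391 and 97.8 in p16 papillomas 1, 2 and 3 against 8.43 to 23.1 in control papillomas. Its high values were in the 2 papillomas with the most skeletal muscle signal. Ppp1r3c was low, with 1.35, 8.68 and 21.3 in p16 papillomas and at most 1.71 in control papillomas. Tkt, the transketolase that links the pentose phosphate pathway back to glycolysis, had 1131, 1256 and 1164 in p16 papillomas against 1839, 1905, 1753 and 1861 in control papillomas. The values were tight within each group, and the log2 change was -0.64 (SE 0.13, limma, adjusted p = 0.0142). Without p16 papilloma 1 (0.0594) or control papilloma 2 (0.0523) the adjusted p of limma was above the threshold. Taldo1, the transaldolase of the same branch, had 351, 376 and 460.1 in p16 papillomas against 585, 506, 867 and 610.1 in control papillomas and did not pass with limma (log2 change -0.68, SE 0.19, adjusted p = 0.0630) but did with DESeq2 (adjusted p = 0.0245).

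None of 10 further HIF subunits and regulators was called by limma, edgeR or DESeq2, and 1 was higher at an unadjusted p of 0.05, as were 9.66% of all genes. Hif1an, encoding the asparaginyl hydroxylase that blocks HIF from its coactivators, had 157, 107 and 105 in p16 papillomas against 74.3, 82.1, 79.4 and 86.4 in control papillomas, with no overlap (log2 change 0.58, SE 0.19, limma, adjusted p = 0.110). Of 27 further HIF targets tested, 2 were called higher by limma and none lower (2.66% and 2.96% of all genes). At an unadjusted p of 0.05 (limma), 4 were higher and 8 lower (9.66% and 11.6% of all genes). edgeR called 1 higher and none lower, and DESeq2 called 3 higher and 1 lower. The lower one was Bhlhe41 (log2 change -2.22, DESeq2, adjusted p = 0.00433), which did not pass with limma (-1.87, adjusted p = 0.0669). Rora was among the higher ones (0.81, DESeq2, adjusted p = 0.00608) and did not pass with limma (0.78, adjusted p = 0.0515). The groups did not overlap for either gene. Higd1a, a mitochondrial protein induced by hypoxia, had 1130.0, 1065 and 1018 in p16 papillomas against 896, 620, 629 and 550.0 in control papillomas (log2 change 0.69, SE 0.17, limma, adjusted p = 0.0403). Mxi1, a MAX partner that opposes MYC, had 277, 344 and 223 in p16 papillomas against 167, 197, 163 and 163 in control papillomas (log2 change 0.68, SE 0.18, limma, adjusted p = 0.0467). Each of these calls was kept in 1 of the 7 omissions of a papilloma, with limma adjusted p up to 0.119 for Higd1a (without p16 1) and 0.182 for Mxi1 (without p16 2), and Higd1a did not pass with edgeR (adjusted p = 0.0528). None of Ldhd, Gpd2, Tkt, Higd1a and Mxi1 passed with the muscle and adipocyte covariate or the erythroid covariate (limma, adjusted p of 0.132 for Tkt and above). The median log2 change of the 27 was -0.12. The muscle forms Eno3 (log2 change 2.10) and Pgam2 (2.30) were highest in p16 papillomas 2 and 3, those with the most skeletal muscle signal. They did not pass with limma or edgeR and passed with DESeq2 (adjusted p = 0.0339 for Eno3 and 0.0173 for Pgam2).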

How the data were processed

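Whole-papilloma RNA was profiled by CEL-Seq2, a 3′ tag method. As the study's methods and processing notes state, the authors trimmed reads with Cutadapt, aligned them to GRCm38 with TopHat2, counted them per gene with HTSeq and normalized with DESeq2. Their versions are not given in the sources used here. The deposited signal values are the authors' normalized read counts (reads over a size factor for each papilloma). Deposited beside them are log2 fold changes with standard errors, a Wald score and p-values of the authors' own comparison, which were not used. A keratinocyte expression mark is carried by all 34 genes. Dividing by what 1 read is worth gave whole reads for 100% of values (tolerance 0.001), and these recovered reads served for depth and for count-based alternatives.

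The 10466 of 14820 genes that averaged 10 or more in p16 or control papillomas were fitted with limma (trend) on log2(value + 1), p16 against control, with Benjamini-Hochberg adjustment over all genes, two-sided. Fold changes on this scale understate low genes. In total 588 genes were called (278 higher, 310 lower). edgeR's quasi-likelihood test and DESeq2 were run on the recovered reads as alternatives and called 543 and 786. Reads were not corrected for amplification here. The limma fit was tested on simulated reads, where it called 41 of 100 genes given a 2-fold change and 89 of 100 given a 4-fold change. It made 8 false calls among the 10175 genes tested there. Changes of 2-fold or less can thus often be missed. The genes and lists were chosen with earlier results of these data known. Every one of the 34 genes is accounted for. Values per papilloma are given for called and non-overlapping genes, the 2 smallest p of each role group and Hif1a, Slc2a1, Ldha, Car9 and Vegfa, and for called genes of the other lists. Taldo1, Hif1an, Rora, Bhlhe41, Eno3, Pgam2, Pygm, Ppp1r3c and single markers, and further values per papilloma, were added after values were seen. Gene positions are from GENCODE M21 (GRCm38), promoters from RefSeq (GRCm38.p6). Software used was Python 3.11.15 (matplotlib 3.10.9, statsmodels 0.14.6, scipy 1.17.1, pandas 2.3.3, numpy 2.4.6) and R 4.3.3 (DESeq2 1.42.0, edgeR 4.0.16, limma 3.58.1).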

Additional observations from a re-analysis of the deposited data

Results flagged for a closer look

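Among 40 values checked over the 4 control papillomas, 2 had 1 papilloma far from the rest, as chance gives for about 1 in 20. Eno1 was at 1067.8 normalized read counts in control papilloma 2, against 822 to 863 in the other controls. Egln1 was at 249.7 in control papilloma 5, against 211 to 215 in the other controls.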

How the results depend on the processing

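The 19 alternatives were other pseudocounts (0.5 and 4), no filter or a mean of 30, library totals, TMM factors, edgeR and DESeq2 on the recovered reads, keratinocyte-marked genes alone, 2 marker covariates, a replicate block and 7 omissions of 1 papilloma. The 588 genes called became 248 without the filter, 74 with the muscle and adipocyte covariate and 7 with the erythroid covariate, and the 4 called glycolysis and hypoxia genes became 2, 1 and 0. The cause was not tested. Omissions gave 267 to 548 genes and 1 to 4 of the glycolysis and hypoxia genes. Without p16 1, p16 2, control 2 and control 5 there were 382, 267, 351 and 351 genes. With 3 and 4 papillomas and 1158035 reads in the shallowest, genes near the limit of 10, such as Ankrd37, are measured loosely.

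Deviations of same-numbered papillomas from their group means correlated at -0.092, -0.0058 and -0.052 across genes. Papillomas with different numbers gave -0.068 to 0.11, so no pairing by number was seen. With means of only 3 and 4 papillomas, this check cannot show whether same-numbered papillomas shared a litter or an experiment. With the replicate number as a block, in which control 5 has no partner and adds nothing to the change, 275 genes and 2 of the glycolysis and hypoxia genes (Egln1 and Egln3) were called, and the signs of Slc2a1 (-0.10), Hk2 (0.082), Pfkfb3 (-0.039) and Ndrg1 (-0.0063) turned.

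Other signs that turned were those of uncalled genes, mostly near 0. Slc2a1 had a log2 change of -0.0016 with TMM factors, -0.05 with edgeR, -0.041 with DESeq2 and -0.65 with the muscle and adipocyte covariate. That covariate also gave -0.44 for Pfkm, -0.55 for Pfkfb3, 0.040 for Eno1 and -0.35 for Slc16a1. Ndrg1 had -0.014 with edgeR and -0.0052 with DESeq2, and Hk2 had 0.010 with library totals. The erythroid covariate gave 0.073 for Gapdh, 0.062 for Pgam1, 0.11 for Eno1, -0.42 for Slc16a1, 0.26 for Slc16a3, 0.094 for Egln2, -0.49 for P4ha1 and 0.33 for Vegfa. Over the omissions of 1 papilloma, log2 changes ran from -0.17 to 0.25 for Slc2a1, -0.27 to 0.18 for Hk2, -0.13 to 0.40 for Pfkfb3, -0.12 to 0.0070 for Gapdh, -0.086 to 0.063 for Eno1, -0.42 to 0.11 for Ldhb, -0.10 to 0.30 for Slc16a1, -0.037 to 0.21 for Pdk1, -0.20 to 0.25 for Ndrg1, -0.11 to 0.00027 for Bnip3l and -0.17 to 0.0029 for Vegfa. The signs of Egln3, Egln1, Pfkp, Gpi1, Hk1, Ldha and Pkm were kept in all 19.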
